A study of Mus musculus with 2 samples.

Results

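The constant end of Igh, the mouse immunoglobulin heavy chain locus, was examined for bound CTCF in thymocytes. Its members were chosen by position: bound regions whose midpoint lies in chr12:114300000-114723000 of build mm9. The upper bound lies 161 bp below the next region, so it may have been placed with the list in view. This window of 423 kb runs from the flank beyond the 3' regulatory region, over the constant genes from Igha to Ighm, to the J and D segments before the V array. It held 18 of the 51660 CTCF regions listed on the 19 autosomes and the X, or 0.0348%.

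CTCF binding was mapped by chromatin immunoprecipitation and sequencing (ChIP-seq) in 1 library made with an anti-CTCF antibody. A library of input DNA from the same kind of cells is also in the labels and was not analysed here. All cells were labelled CD4+CD8+ (double-positive, DP) thymocytes of C57BL/6 mice aged 4 to 8 weeks, with the genotype Rag1 -/- and a rearranged TCRbeta transgene, fixed with 1% formaldehyde for 10 minutes. The labels do not say how many mice gave the cells. Rag1 encodes a subunit of the recombinase that joins V, D and J segments, so in its absence the endogenous Igh locus stays in germline order. There was no replicate and no second condition, so each comparison below is between places in the genome within this library, and none carries a test. A list of bound positions holds no expression, so the labelled cell stage was not checked against Cd4, Cd8a or Cd8b1.

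CTCF is a zinc-finger DNA-binding protein that halts the extrusion of DNA loops by cohesin and thereby sets the borders of chromatin domains. A heavy chain begins with a V, a D and a J segment joined together, and its class is set by the constant gene that is transcribed with them. Ighm encodes the mu chain of IgM and Ighd the delta chain of IgD, the classes of naive B cells. Class switching replaces them with a gamma gene, with Ighe (the epsilon chain of IgE) or with Igha (the alpha chain of IgA). Beyond Igha lies the 3' regulatory region, a group of enhancers that drives class switching and antibody output in B cells. Past these enhancers lies a known array of CTCF-binding elements at the end of the locus. Normal DP thymocytes make T cell receptors and no antibody. The cells used here differed from these in lacking Rag1 and carrying a rearranged TCRbeta transgene.

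The gene order gives the frame for these regions. In the RefSeq table of GRCm38, used for names and order only, 8 constant genes are listed. From low to high coordinates they are Igha, Ighe, Ighg2c, Ighg2b, Ighg1, Ighg3, Ighd and Ighm. The 4 genes whose names begin with Ighg encode gamma chains of IgG. The table also lists 4 other genes between Igha and Ighm, which are not named here. After Ighm come 4 J segments and 20 D segments, D pseudogenes included. Among the D segments or between them and the first V segment lie 2 protein-coding genes of the Adam family, Adam6b and Adam6a, which are known for a role in sperm. On the other side of Igha the 10 nearest protein-coding genes are, in order away from it, Tmem121, Tedc1, Crip1, Gm30599, Crip2, Mta1, Tex22, Pacs2, Btbd6 and Brf1. Tmem121 encodes a membrane protein, Crip1 and Crip2 encode LIM-domain proteins, Mta1 a subunit of the NuRD chromatin-remodelling complex, Pacs2 a protein-sorting adaptor and Brf1 a factor of RNA polymerase III. No mm9 annotation or genome sequence was used, so no region is assigned to a gene, exon or promoter, and no sequence of a region is shown.

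The 18 regions fell into 3 stretches along the window: 12 spread over the flank, 6 packed into 8.925 kb, and none in the remainder. The packed regions, called the compact group here, ran from 114453961 to 114462885. From its end to the upper bound of the window, 260.115 kb, or 61.5% of the window, held no listed region. All 18 regions therefore lay in the low-coordinate part of the window.

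**Figure D1:**
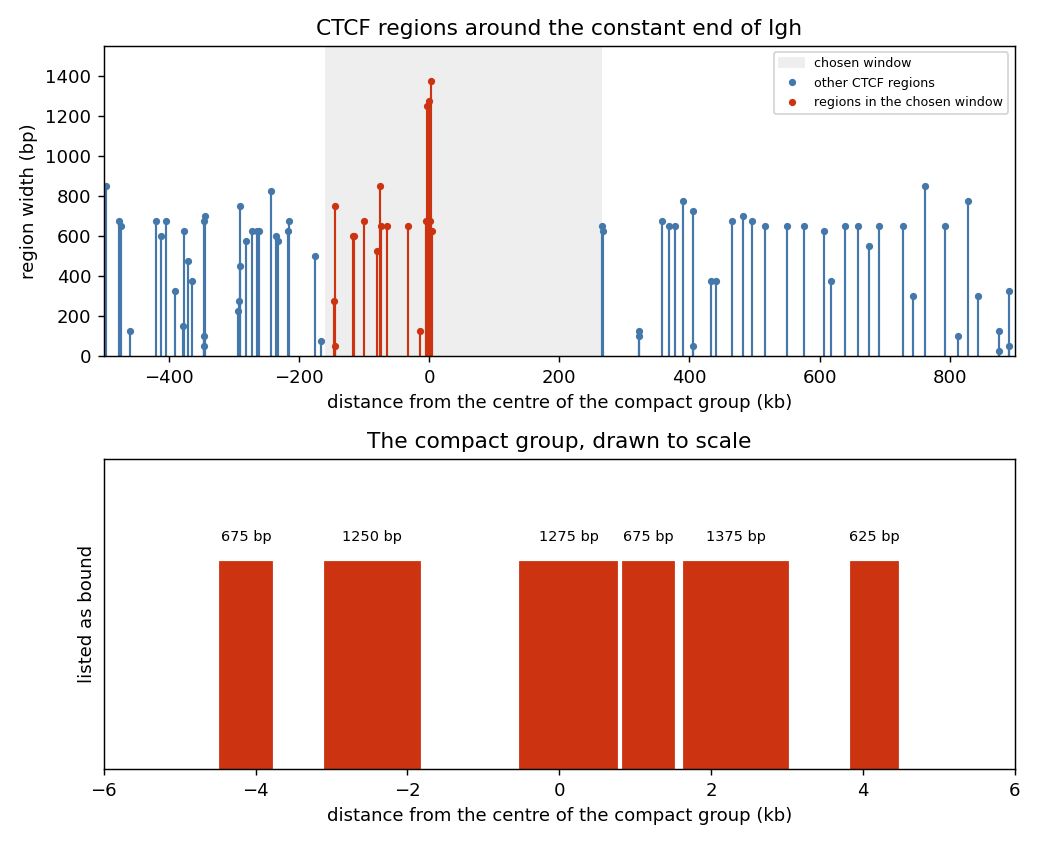
Above, the width of each CTCF region (bp) is drawn against its distance from the centre of the compact group (kb), with the 18 regions of the window in red, other regions in blue and the window shaded. The red regions end at the compact group and 260.115 kb of the window beyond it hold none. Below, the 6 regions of the compact group are drawn to scale with their widths.

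The flank held more regions than most stretches of its length. Its 12 regions lay in 153.961 kb, or 77.9 per Mb, and covered 6400 bp (4.16%). Of windows of that length tiled along all chromosomes, 94.96% of 17117 held fewer than 12 regions, and the median was 1. The density was not particular to the flank. The 500 kb below the compact group held 45 regions, the 12 of the flank included. Widths in the flank ran from 50 to 850 bp with a median of 625 bp, while the median of all regions was 525 bp. The 11 distances between neighbouring flank regions ran from 25 bp to 31.05 kb with a median of 9.175 kb, and the median of the library was 13.1 kb.

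The outermost flank regions formed 2 small sets. First came a region of 275 bp (114311811 to 114312085), then, 1050 bp on, one of 750 bp (114313136 to 114313885) and, 25 bp on, one of 50 bp (114313911 to 114313960). After 26.625 kb there followed a pair of equal width, 600 bp each (114340586 to 114341185 and 114341986 to 114342585), 800 bp apart. The pair matched in width, and no other neighbouring regions of the flank did so at a distance under 2 kb.

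The middle of the flank held the widest region outside the compact group. A lone region of 675 bp (114357536 to 114358210) lay 20.1 kb from the next, which was 525 bp wide (114378311 to 114378835). Then came the region of 850 bp (114382311 to 114383160), wider than 97.3% of all regions, with a neighbour of 650 bp (114384111 to 114384760) at 950 bp. The 3 flank regions nearest to the compact group stood alone. Those at 114393936 to 114394585 and 114425636 to 114426285 were both 650 bp wide and 31.05 kb apart. The last flank region was only 125 bp wide (114443736 to 114443860) and ended 10.1 kb before the compact group.

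The compact group consisted of 3 regions wider than 1 kb set among 3 narrower ones. In order of position the widths were 675, 1250, 1275, 675, 1375 and 625 bp. The first region spanned 114453961 to 114454635, and the second, of 1250 bp, spanned 114455336 to 114456585. The third, of 1275 bp, lay at 114457911 to 114459185 and the fourth, of 675 bp, at 114459261 to 114459935. The fifth and widest, 1375 bp or 55 windows of 25 bp, spanned 114460061 to 114461435. The sixth, 625 bp, ended the group at 114462261 to 114462885. Each narrower member was 625 to 675 bp wide, and 625 bp was the most frequent width in the library. A width of 625 bp exceeded that of 70.1% of all regions, and 675 bp that of 87.9%.

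The distances inside the group were short and unequal. In order they were 700, 1325, 75, 125 and 825 bp. The third, the fourth and the fifth regions were separated by only 75 and 125 bp, so from 114457911 to 114461435 the list covered 3325 of 3525 bp. Over the whole group 5875 of 8925 bp (65.8%) were listed as bound, and these made up 47.9% of the 12275 bp covered in the window. Whether each region over 1 kb holds a single broad site or several close ones cannot be told from positions alone.

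Regions as wide as these were rare in the library. Of all regions 1.04% were wider than 1 kb, against 3 of the 18 in the window, and 17 such regions lay on the whole of chromosome 12. The 1375 bp region ranked 79 by width among the 51660 regions, the 1275 bp region ranked 128 and the 1250 bp region 149. At most 75 bp wide was 1 of the 18 regions, close to the 14.1% of all regions for so few members. The share of widths from 575 to 675 bp was 9 of 18 (35.3% of all regions), and 14 of 18 were at least 600 bp wide (37.5% of all regions). The median width in the window was 650 bp and the mean 682 bp (SD 352 bp across regions), and the median of chromosome 12 equalled that of the genome, 525 bp.

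**Figure D2:**
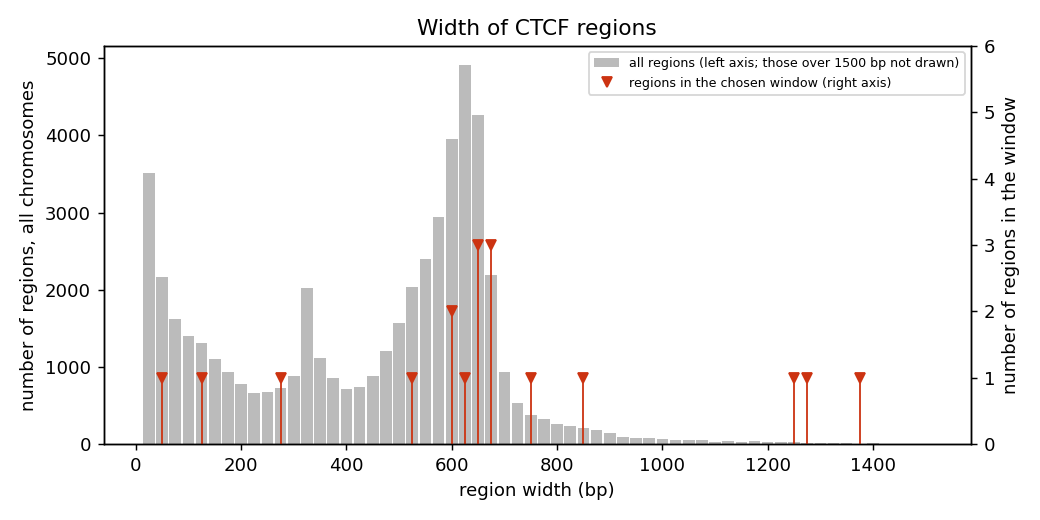
Grey bars give the number of regions of each width (bp) over the autosomes and the X (left axis), and red markers the number of the 18 regions of the window at each width (right axis). Of the 18 regions 9 lie within 575 to 675 bp, around the most frequent width of 625 bp, and 3 stand at 1250, 1275 and 1375 bp, where few grey regions remain.

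Runs with several wide regions were few. A run was defined as consecutive regions each at most 2 kb from the next. The library held 41401 runs, of which 33804 were single regions and 53 (0.128%) had 6 or more members. At this limit of 2 kb the compact group was the only run with 3 regions wider than 1 kb, and 6 runs, this one included, had at least 2. By covered bases the compact group ranked 1 among all runs at this limit. Of the 6 runs, 2 followed each other on the X, each with 2 wide regions. They covered 3675 bp (47952811 to 47961510) and 2575 bp (47964736 to 47970660). A larger limit that joined them would change both the count and the rank. The run ranked next covered 5750 bp with 2 regions on chromosome 17 (39979777 to 39985901).

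Other long runs consisted of narrower regions. Among the 53 runs of 6 or more, the median of the mean width was 296 bp, and the highest besides the compact group was 612.5 bp. The mean width in the compact group was 979 bp. The longest run of the library had 9 regions. Next-region distances of at most 2 kb were found for 9 of the 18 regions, against 19.9% of all regions. These 9 include every distance inside the compact group, which is at most 2 kb by the definition of a run.

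Coverage was also counted in stretches of fixed length. The median stretch of 10 kb that starts at a region held 625 bp of bound sequence, and the stretch with the compact group held 9.4 times as much. After the stretches on chromosomes 12 and 17, the next separate stretches held 4000 bp, both on chromosome 4 (133385536 to 133395935 with 6 regions, and 137867186 to 137875960 with 3). The lead over chromosome 17 was a factor of 1.02, so the order of these 2 places is close. In stretches of 5 kb the most covered stretch of the Igh window held 4575 bp in 4 regions of the group and came second after chromosome 17. In stretches of 20 kb it held 6000 bp in 7 regions, the last flank region of 125 bp included. There it came second after a stretch of 6750 bp with 10 regions on the X. Whether reads of the input library also pile up at any of these places was not tested.

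Beyond the compact group the list was empty over 260.275 kb, from 114462886 to 114723160. By the gene order, and if the compact group lies past the 3' regulatory region, where CTCF-binding elements are known, this gap takes in the 3' regulatory region, the constant genes Igha, Ighe, the 4 gamma genes, Ighd and Ighm, and the J segments. That condition was not tested, since no mm9 annotation was used. For the same reason it was not checked how many of the D segments, which follow the J segments, the gap also takes in. The gap was 19.9 times the median distance between neighbouring regions of the library, 13.1 kb, and 8.38 times the longest distance in the flank. Gaps of this length were not rare: 1502 of 51640 distances (2.91%) were longer, and on chromosome 12 it ranked 70 of 2128. The absence of a listed region does not show absence of CTCF, since the depth of the library and the threshold of the peak list are unknown.

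The edges of long gaps were compared next. Among the 1504 gaps at least this long, the median of covered bases within 10 kb of the denser edge was 600 bp. At this gap the edge next to the compact group held 5875 bp, which ranked 1, and the opposite edge held 1275 bp. The compact group already ranked 1 by covered bases among all 10-kb stretches. The rank of the edge follows from that and is no separate result. The next value, 5750 bp, came from the same chromosome 17 regions, which border a gap on either side (945 kb and 2592 kb long). After those, the highest value was 3225 bp.

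**Figure D3:**
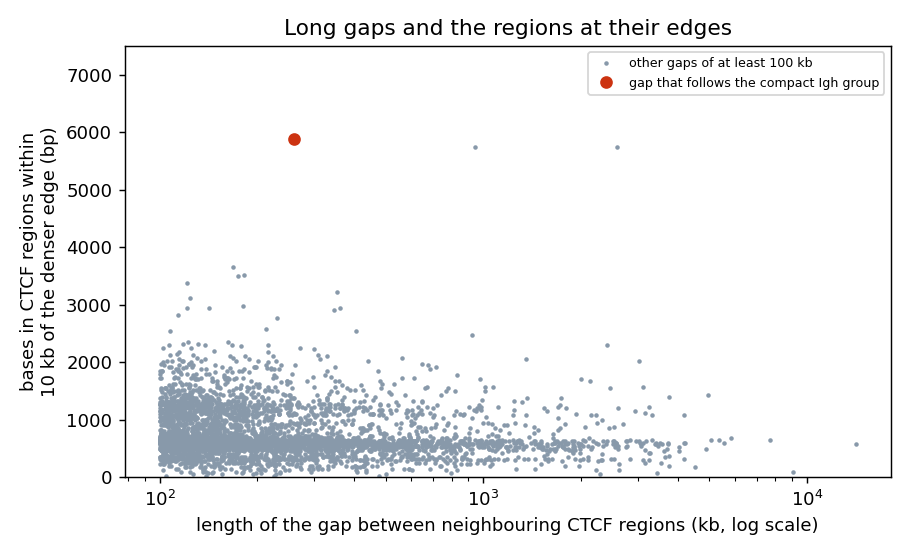
Each point is a gap of at least 100 kb between neighbouring CTCF regions, with its length (kb, log scale) against the bases in CTCF regions within 10 kb of its denser edge (bp). The gap next to the compact group (red) lies at 260.275 kb and 5875 bp, and the grey points at 5750 bp are the gaps on either side of the chromosome 17 regions.

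Coverage was one-sided around the compact group. Within 50 kb on the low-coordinate side lay 2 regions with 775 bp, within 100 kb 7 regions with 4125 bp, and within 200 kb 14 regions with 6975 bp. On the high-coordinate side none was listed within 200 kb, which follows from the gap already described and is no separate result. Within 500 kb there were 45 regions on the low-coordinate side and 15 on the other.

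The gap ended just outside the window with a pair of regions. The first, 650 bp (114723161 to 114723810), began 161 bp above the upper bound, and the second, 625 bp (114725761 to 114726385), followed 1.95 kb on. A regulatory element of paired CTCF sites between the D and V segments, IGCR1, is known from B cell precursors. Whether this pair is that element was not checked, for lack of an mm9 annotation. After the pair the next regions were only 125 and 100 bp wide, at a distance of 54.525 kb. At the lower bound of the window the nearest region outside was 75 bp wide (114292786 to 114292860) and ended 7140 bp below it. The upper bound thus fell almost exactly on the end of the gap, and the share of the window without regions depends on that choice.

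The remainder of Igh held regions along its length and none wider than 1 kb. From the upper bound of the window through the V array, 140 regions lay in 2577 kb, or 54.3 per Mb (95% Poisson interval 45.7 to 64.1). The constant end held 42.6 per Mb (25.2 to 67.3), and the intervals, which cover counting error only, overlapped. Widths in the V array reached 850 bp, with 0 of 140 regions wider than 1 kb and a median of 575 bp. Its most covered stretch of 10 kb held 1325 bp, and the compact group held 4.43 times that. The median distance was 15.55 kb in the V array and 1.325 kb over the 17 distances between the 18 regions. The latter leaves out the gap of 260.275 kb and includes the short distances inside the compact group. In the flank alone the median was 9.175 kb. The longest distance within the V array was 84.85 kb. The share of widths from 575 to 675 bp was 50% in both parts.

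As the compact group ranked 1 among all 10-kb stretches, the most covered stretch of each other antigen receptor locus held fewer bound bases by necessity. Over the whole window this was not so: Tcra/Tcrd had 93925 and Tcrb 16700 covered bp, against 12275 here. The comparison of stretches gives only the size of the difference. The most covered stretch held 2075 bp in Tcra/Tcrd, 1950 bp in Tcrb, 2100 bp in Tcrg, 2075 bp in Igk and 825 bp in Igl. The Igh group covered 2.80 to 7.12 times as much as these. The Tcrg stretch also had 6 regions and the Igk stretch 5, so they matched the Igh group or nearly so in number and had less than 0.5 of its covered bases. Regions wider than 1 kb numbered 6 of 188 in Tcra/Tcrd and 0 in Tcrb, Tcrg, Igk and Igl. Of the bases covered in the whole window, 47.9% lay in the single densest stretch at the constant end of Igh, 36.1% in Tcrg, 32.8% in Igk, 11.7% in Tcrb and 2.21% in Tcra/Tcrd. In Igl, with 4 regions in all, it was 55.0%.

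**Figure D4:**
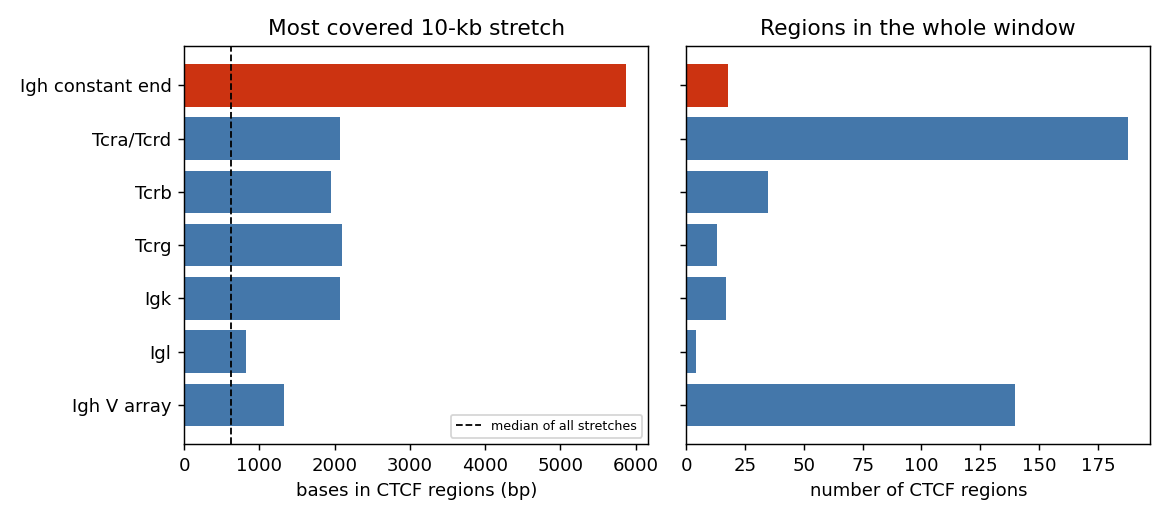
Left, the bases in CTCF regions (bp) in the most covered 10-kb stretch of each locus window, with the median of all stretches as a dashed line. Right, the number of CTCF regions in each whole window, whose lengths differ from 300.0 kb to 3200 kb. The constant end of Igh (red) reaches 5875 bp with 18 regions, and Tcra/Tcrd 2075 bp with 188.

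Compared with the genome as a whole, the window was well filled for its length in spite of its gap. Of 6225 tiled windows of 423 kb, 83.5% held fewer than 18 regions and 94.2% had fewer covered bases, with medians of 5 regions and 2025 bp. These tiles include 25.6% that held no region at all. Among antigen receptor loci the density was not unusual. Regions per Mb were 42.6 here, 98.9 in Tcra/Tcrd, 43.3 in Tcrg, 38.9 in Tcrb, 13.3 in Igl and 5.31 in Igk. On chromosome 12, 85.3% of 286 such windows held fewer regions. Of the 1026 tiled windows with at least 18 regions, 1 had a part of at least 260.115 kb without any, and the median of the longest empty part was 74.8 kb. The tiles have arbitrary bounds, whereas the window here was drawn around a known locus with its upper bound at the end of the gap.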

How the data were processed

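CTCF ChIP-seq of 1 library was analysed. The submitters' processing notes name Bowtie as aligner and mm9 as build. Not given in the sources used here are Bowtie's version, the peak caller and threshold, and whether the input entered the calls. The deposited list holds 912174 windows of 25 bp as chromosome, start and end, per the file itself, with no height, count or score that would give a depth. Starts were read as counted from 0 and are printed counted from 1.

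Adjoining windows (gap 0 bp) were joined into regions, and 1 mitochondrial region was left out. Width was used to describe a region. Members and lists were chosen with earlier results of these data known. Every region of the window, the constant genes and the 10 nearest protein-coding genes beyond Igha were named. The J and D segments and 4 other genes between Igha and Ighm were counted but not named. Comparison loci are rounded mm9 windows from general knowledge. A 10-kb stretch starts at a region, takes each region that starts in it whole, and may overlap other stretches; separate stretches start at least 10 kb apart. Poisson intervals (95%, exact) cover counting error only. The joining, stretch and run steps were tested on simulated data. The planned motif search was not run, because it needs an mm9 genome. Alternatives were joining at 100, 500 or 1000 bp, leaving out regions of at most 75 bp, other stretch and run lengths, and membership by overlap. Software was SciPy 1.17.1, pandas 2.3.3 and NumPy 2.4.6 under Python 3.11.15, with matplotlib 3.10.9 for plots.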

Additional observations from a re-analysis of the deposited data

How the results depend on the processing

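Joining regions at most 1000 bp apart lowered the number of regions from 18 to 11 and raised their median width from 650 to 675 bp. The other 4 settings gave 15 to 18 regions, and the median was 650 bp in the 3 of them in which it was computed. Covered bases were 12275, and 12375, 12500 and 15775 after joining at 100, 500 and 1000 bp, which counts the bases between joined regions, and 12225 without regions of at most 75 bp. The most covered stretch of the window, ranked 1 by covered bases with overlapping stretches counted, ranked 2 in stretches of 5 kb and 5 in stretches of 20 kb. It also ranked 2 after joining at 500 bp, one of 3 joining distances chosen for this rank after seeing the data, and 1 at the other two. The longest run of the window had 4 regions with neighbours at most 1 kb apart and 6 in the other settings. The number of wide regions per run and the rank of runs by covered bases were computed at the 2-kb limit only. Regions wider than 1 kb numbered 3 after joining at 100 bp, 2 at 500 bp and 4 of 11 at 1000 bp, while their share of all regions was 1.71%, 4.16% and 7.29%. The joining at 500 and 1000 bp was added for this count after seeing the data. The gap of 260.275 kb did not change after joining at 100, 500 or 1000 bp, or without regions of at most 75 bp. No paired analysis was possible because 1 library was analysed. Without depth or heights, weak binding cannot be read from positions that are not listed.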

Other observations

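How the compact group is divided depends on the joining distance. Joined at 100 bp it became 5 regions, the widest 2025 bp, which ranked 12 by width of 47421 regions. At 500 bp it became 4 regions, the widest 3525 bp (rank 5 of 45457). At 1000 bp it became 2 regions, the wider 4975 bp (rank 6 of 43881).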
